A study of Homo sapiens with 8 samples.

Results

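The serpins are a family of proteins that mostly inhibit serine proteases, and they are sorted into clades by sequence. Members were taken as every row of the count table whose symbol is SERPIN, a clade letter from A to I and a number, which gave 35 of 58870 genes. Of these, 17 passed the filter on low counts and were tested, among 14785 tested genes in all. The cells were CFPAC-1, an established line of human pancreatic ductal adenocarcinoma, in 8 bulk RNA-seq libraries. In 4 of them the cells carried an empty vector and in 4 an ADRA2A transgene, which encodes the alpha-2A adrenergic receptor. All samples were grown for 72 hours in IMDM medium with 10% serum, and no drug was given. The promoter that drives the transgene, and whether the 4 samples per group were separate transductions or cultures, are not given in the sources used here, so p-values measure only the spread between these samples, which may be technical.

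An inhibitory serpin presents an exposed reactive loop to its target protease. When the protease cuts that loop, the serpin changes shape, traps the enzyme in a covalent complex, and is itself used up. Secreted members hold blood clotting, fibrinolysis, complement and neutrophil proteases in check, and clade B members stay largely inside the cell. Some members inhibit nothing and instead carry hormones or fold collagen. In pancreatic tumours serpins are known as part of the balance of proteases around the cell.

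Library totals lay between 14427040 and 17528910 counts. ADRA2A had 0 counts in every empty-vector library and between 112 and 172 counts in the ADRA2A libraries. All 10 markers of ductal epithelium were tested and their summed level lay between 12437 and 13016 counts-per-million (CPM) in the empty-vector libraries and between 12368 and 13432 CPM in the ADRA2A libraries. Most of that sum was KRT8, KRT19 and KRT18. Of the 10 markers 4 were higher (MUC1 by 0.79 on the log2 scale) and 4 lower (KRT7 at -0.43, CDH1 at -0.33). Across all tested genes 21.6% were higher and 21.1% lower at the same threshold, an adjusted p under 0.05. Acinar markers summed to at most 0.443 CPM and fibroblast markers to at most 4.16 CPM in any library. Endothelial markers summed to at most 2.71 CPM in the empty-vector libraries and 3.35 CPM in the ADRA2A libraries. Of these 6 markers 2 were tested, at low levels. PECAM1 was higher (0.773 to 2.44 CPM, log2 fold change 1.66) and KDR was lower (1.23 to 0.482 CPM, -1.35). Immune markers summed to between 90.3 and 121 CPM, nearly all of it CD68, with means of 91.6 CPM with the empty vector and 114 CPM with ADRA2A, while CD3E, AIF1, NKG7 and MS4A1 had 0 counts in all 8 libraries. In bulk RNA, fewer cells of a type and less RNA per cell cannot be told apart.

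Of the 17 tested serpins, 9 were higher and 1 was lower in the ADRA2A cells at a Benjamini-Hochberg adjusted p under 0.05 in edgeR's quasi-likelihood test, and 7 did not pass. Across all tested genes 42.7% passed the same threshold, 21.6% higher and 21.1% lower, so the 58.8% of the tested serpins that passed is to be read against a high background. The median log2 fold change of the tested serpins was 0.11, against 0.00 for all tested genes. The libraries of both groups were fully separated for 8 of the 17 serpins, against 39.2% of all tested genes. A log2 fold change of 1 or more in either direction, with an adjusted p under 0.05, was found in 5 serpins (SERPINA1, SERPINA4, SERPINA6, SERPINB4 and SERPING1), against 4.66% of all tested genes. SERPINA6 passed the filter on low counts only through its ADRA2A libraries, so its place in these counts depends on its being high in that group. By clade, 4 of 5 tested clade A genes were higher, 3 of 7 clade B genes were higher and 1 lower, the single tested genes of clades E and G were higher, and those of clades F, H and I did not pass.

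**Figure D1:**
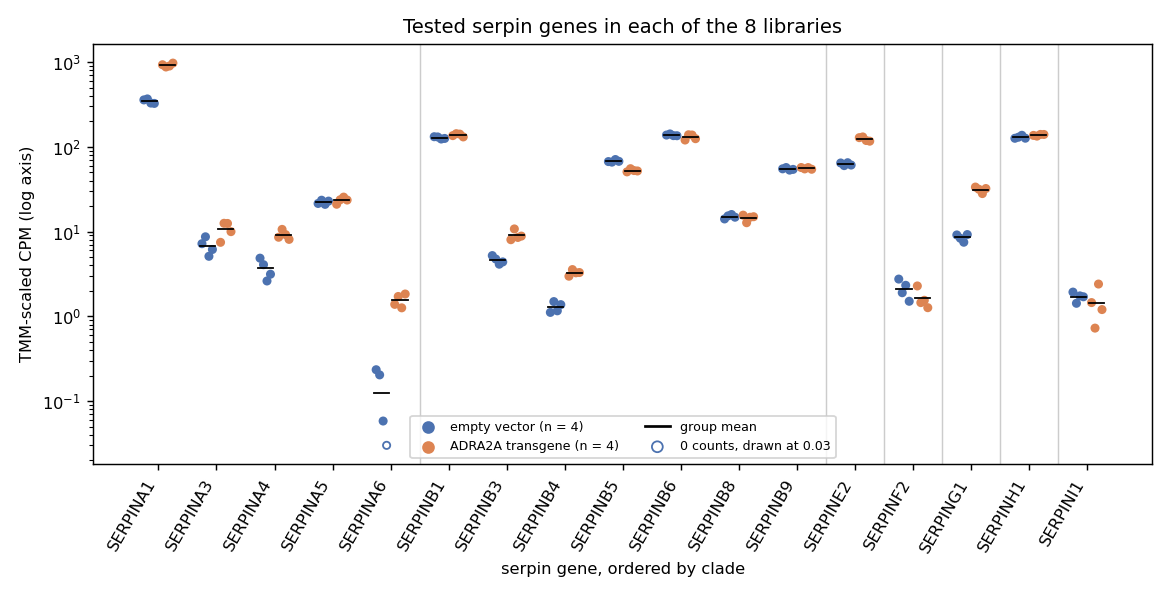
TMM-scaled CPM on a log axis for each tested serpin in each of the 8 libraries, ordered by clade, with a black line at each group mean and an open circle for a library with 0 counts. SERPINA1 lies highest, between 326 and 368 CPM in the empty-vector libraries and between 877 and 975 CPM in the ADRA2A libraries.

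Levels of different serpins were compared on the per-length scale of TPM, in which counts are divided by the length of each gene's canonical transcript and scaled to the same total in each library. The highest TPM in the empty-vector cells was that of SERPINA1, 263 ± 15.7 (SD, n = 4), followed by SERPINB6 with 240 ± 4.75, SERPINH1 with 145 ± 4.26 and SERPINB1 with 119 ± 4.12. In the ADRA2A cells SERPINA1 reached 706 ± 42.1 TPM, while SERPINB6 stood at 229 ± 13, SERPINH1 at 154 ± 4.45, SERPINB1 at 128 ± 3.46 and SERPINE2 at 128 ± 7.28. SERPINB1 and SERPINE2 thus lay within their spread of each other in the ADRA2A cells but not in the empty-vector cells, where SERPINE2 had 64.5 ± 2.76 TPM. SERPINA1 alone made up 26.5% ± 0.931 of all serpin TPM in the empty-vector libraries and 45.6% ± 1.90 in the ADRA2A libraries (SD, n = 4 each). The summed TPM of all 35 serpins went from 994 ± 24.9 to 1548 ± 28.4, and without SERPINA1 from 731 ± 9.83 to 842 ± 15.3. Clade B summed to 468 ± 8.39 TPM in the empty-vector cells and 462 ± 15.8 TPM in the ADRA2A cells, a difference smaller than the spread between replicates. These sums are descriptions and were not tested.

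**Figure D2:**
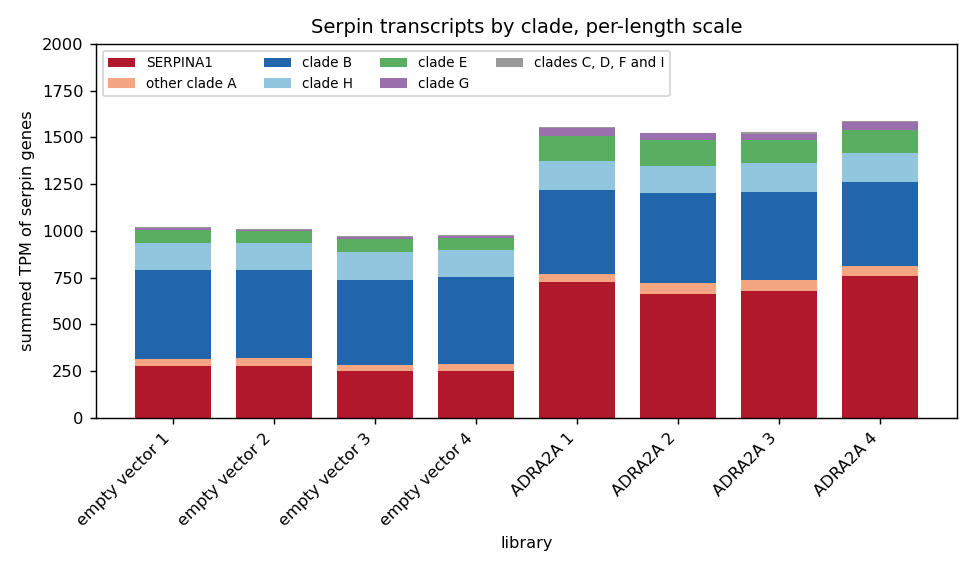
Summed TPM of serpin genes in each library, stacked by clade with SERPINA1 drawn apart. The 4 ADRA2A bars end between 1526 and 1586 TPM and the 4 empty-vector bars between 970 and 1020 TPM, and SERPINA1 is the part that differs most.

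Clade A holds the plasma serpins that the liver is best known for, and 11 of its genes were in the table. The 5 that were tested, SERPINA1, SERPINA3, SERPINA4, SERPINA5 and SERPINA6, lie in 1 cluster on chromosome 14 of GRCh38, from 94304248 to 94624055. Capitals in the sequences below mark the letters GTTAAT or their reverse complement. These letters are a half-site of the HNF1 transcription factors, not their full binding site. The 250 bases before the RefSeq start are shown on GRCh38.p14 for SERPINA5 and for the 3 genes that differed most within the cluster. They are chr14:94388603-94388852 on the minus strand for SERPINA1, chr14:94561192-94561441 on the plus strand for SERPINA4, chr14:94323337-94323586 on the minus strand for SERPINA6 and chr14:94581176-94581425 on the plus strand for SERPINA5.
SERPINA1: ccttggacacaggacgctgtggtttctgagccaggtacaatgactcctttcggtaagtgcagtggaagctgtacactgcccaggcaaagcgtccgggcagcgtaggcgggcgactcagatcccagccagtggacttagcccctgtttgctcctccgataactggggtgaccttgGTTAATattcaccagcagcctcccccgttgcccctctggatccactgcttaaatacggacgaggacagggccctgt
SERPINA4: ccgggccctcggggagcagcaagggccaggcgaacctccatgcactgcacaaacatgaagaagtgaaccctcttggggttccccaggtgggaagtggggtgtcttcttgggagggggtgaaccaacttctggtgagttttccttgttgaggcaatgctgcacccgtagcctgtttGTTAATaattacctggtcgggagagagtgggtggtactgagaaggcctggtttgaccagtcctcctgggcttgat
SERPINA6: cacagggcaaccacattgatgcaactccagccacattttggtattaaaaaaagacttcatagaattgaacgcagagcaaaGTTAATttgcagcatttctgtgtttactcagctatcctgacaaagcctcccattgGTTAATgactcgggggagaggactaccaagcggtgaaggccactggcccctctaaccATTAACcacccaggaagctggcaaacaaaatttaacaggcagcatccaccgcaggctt
SERPINA5: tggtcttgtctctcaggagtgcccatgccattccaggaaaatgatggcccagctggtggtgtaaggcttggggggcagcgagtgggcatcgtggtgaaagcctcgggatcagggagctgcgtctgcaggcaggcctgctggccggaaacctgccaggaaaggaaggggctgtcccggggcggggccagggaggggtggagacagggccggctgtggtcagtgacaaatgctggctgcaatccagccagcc

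The match in SERPINA1 begins 76 bases before the start and that in SERPINA4 begins 75 bases before it, in the same orientation. SERPINA6 holds 3 matches, beginning 170, 115 and 58 bases before the start, the last in reverse. A second RefSeq start of SERPINA1, with the window chr14:94390636-94390885, holds none. Windows were found for 27 of the 35 serpins and for 15 of the 17 tested ones, all but SERPINF2 and SERPING1. Among the 15, SERPINA1, SERPINA4 and SERPINA6 were the 3 with this match, which 6.23% of all 35116 windows of the same length hold. The window of SERPINA5 holds for its RefSeq start only. In GENCODE its gene starts at 94561442, the same base as SERPINA4, so the SERPINA4 window with its match also lies before that start. The match therefore does not separate SERPINA5 from SERPINA4. Of the 12 untested serpins with a window, SERPINA7, SERPINA10, SERPINB12 and SERPINI2 also held it. The other motifs searched on both strands, in the same 250 bases, were CAAAGTCCA (HNF4), TTCNNNGAA (the STAT site known as GAS), the core of the interferon-stimulated response element, TGANTCA (AP-1) and TGACGTCA (the cyclic AMP response element). None of these matches overlapped a GTTAAT match in the windows shown. SERPINA5 and SERPINA6 held 1 TTCNNNGAA match each, a motif in 6.57% of all windows, and SERPINA3 held no match to any motif searched. A match is a description of the letters, not evidence of a bound factor. The genes shown and the motifs were chosen after the fold changes were seen, so the shares of windows test no link between match and fold change.

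SERPINA1 encodes alpha-1 antitrypsin, the main plasma inhibitor of neutrophil elastase. Its gene (ENSG00000197249.13) spans 94376747 to 94390693 on the minus strand of chromosome 14. Its level was 359, 368, 329 and 326 CPM in empty-vector replicates 1 to 4 and 933, 877, 901 and 975 CPM in ADRA2A replicates 1 to 4. Every ADRA2A library lay above every empty-vector library, with a wide gap. The log2 fold change was 1.42 ± 0.04 (SE), or 2.67-fold, with an edgeR adjusted p of 3.20e-15. By mean TPM SERPINA1 stood at the 95.7th percentile of tested genes in the empty-vector cells and at the 98.5th in the ADRA2A cells.

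SERPINA4 encodes kallistatin, an inhibitor of tissue kallikrein. It had 4.86, 4.07, 2.61 and 3.14 CPM in the empty-vector libraries and 8.58, 10.6, 9.22 and 8.10 CPM in the ADRA2A libraries. The groups did not overlap, and the log2 fold change was 1.31 (SE 0.16) at an edgeR adjusted p of 2.07e-06. SERPINA6 encodes corticosteroid-binding globulin, which carries cortisol in blood and is not an inhibitor. It was close to silent in the empty-vector cells, with 4, 3, 1 and 0 counts, and had 20, 26, 22 and 29 counts in the ADRA2A cells. All ADRA2A libraries were higher, at a low level of 1.55 ± 0.271 CPM against 0.124 ± 0.113 CPM (SD, n = 4 each). Its fitted log2 fold change was 3.55, with a 95% confidence interval from 2.57 to 4.54 that reflects the few empty-vector counts (edgeR adjusted p = 4.65e-06).

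SERPINA3 encodes alpha-1 antichymotrypsin, an acute-phase inhibitor of cathepsin G. Its libraries had 7.20, 8.69, 5.11 and 6.15 CPM with the empty vector and 7.47, 12.5, 12.5 and 9.99 CPM with ADRA2A. The groups overlapped, because ADRA2A replicate 1 lay below empty-vector replicate 2. SERPINA3 rose by a log2 fold change of 0.66 (SE 0.16) at an edgeR adjusted p of 0.00278. SERPINA5 encodes the protein C inhibitor. It lay between 21.0 and 23.5 CPM in the empty-vector libraries and between 21.0 and 25.5 CPM in the ADRA2A libraries. Its log2 fold change of 0.08 did not pass (95% confidence interval -0.07 to 0.24, edgeR adjusted p = 0.376). SERPINA4 and SERPINA5 start at the same base in the GENCODE annotation and overlap on the same strand, so reads of a joint transcript could be counted to either, although their canonical transcripts share no run of 50 bases. Of the 6 untested clade A genes, SERPINA7, SERPINA9, SERPINA11 and SERPINA12 had 0 counts in all libraries, SERPINA2 had at most 3 counts and SERPINA10 at most 1.

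Markers of hepatocytes, the cells that make most plasma serpins, are given beside the clade A genes. The 10 markers summed to between 32.0 and 46.1 CPM in the empty-vector libraries and between 91.1 and 108 CPM in the ADRA2A libraries. Nearly all of this was FGB, a fibrinogen chain gene, at 35.6 CPM without and 91.8 CPM with the transgene. FGB and FGA were the 2 markers that passed the filter, and both rose, beside 21.6% of all tested genes that were higher. The other markers were not tested. FGG, also a fibrinogen chain gene, had 0.221 CPM without and 0.632 CPM with the transgene, APOA1 had 0.268 and 0.0323 CPM, TF had 0.110 and 0.0796 CPM, and AHSG had 0.612 and 0.754 CPM. Other defining markers were at or near 0: APOA2, APOB and TTR had 0 counts in all 8 libraries, and ALB had between 0 and 7 counts. The part of such cells in the result was not tested.

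Clade E holds the inhibitors of plasminogen activators, the proteases that turn plasminogen into plasmin and so open fibrin and matrix. SERPINE2 (ENSG00000135919.13, chromosome 2, 223975045 to 224039318, minus strand) encodes protease nexin 1, a cell-surface inhibitor of thrombin, urokinase and tissue plasminogen activator. It had 64.6, 60.1, 65.1 and 61.1 CPM in the empty-vector libraries and 129, 131, 119 and 117 CPM in the ADRA2A libraries. The groups were far apart relative to the spread within them. The log2 fold change was 0.98 (SE 0.05) at an edgeR adjusted p of 2.84e-12, or 1.97-fold. SERPINE3 had 0 counts in all libraries.

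The plasminogen activators and their receptor were set beside the inhibitors. PLAU, which encodes urokinase, stood at 1185 ± 44.5 CPM without and 1157 ± 56.4 CPM with the transgene (SD, n = 4 per group) and did not pass (log2 fold change -0.03, edgeR adjusted p = 0.471). PLAT, which encodes tissue plasminogen activator, rose from 256 ± 27.0 to 379 ± 11.5 CPM, a log2 fold change of 0.56 (SE 0.05) at an edgeR adjusted p of 4.52e-08. PLAUR, the urokinase receptor gene, was at 36.2 ± 1.96 and 35.5 ± 1.36 CPM and did not pass (edgeR adjusted p = 0.730). SERPINF2 encodes alpha-2 antiplasmin, the plasma inhibitor of plasmin. It had 2.75, 1.90, 2.32 and 1.51 CPM in the empty-vector libraries and 2.28, 1.45, 1.55 and 1.26 CPM in the ADRA2A libraries, which overlapped. Its log2 fold change of -0.39 did not pass (95% confidence interval -0.94 to 0.16, edgeR adjusted p = 0.255). SERPINF1, which encodes the non-inhibitory factor PEDF, had at most 3 counts in any library.

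SERPING1 encodes the C1 inhibitor, which blocks the complement proteases C1r and C1s and the contact-phase proteases plasma kallikrein and factor XII. Its gene (ENSG00000149131.15) lies on the plus strand of chromosome 11, from 57597387 to 57619171. SERPING1 had 9.14, 8.35, 7.49 and 9.23 CPM in the empty-vector libraries and 33.6, 31.6, 28.1 and 32.3 CPM in the ADRA2A libraries. The lowest ADRA2A library was above the highest empty-vector library by a wide margin. The log2 fold change was 1.87 ± 0.09 (SE), or 3.67-fold, with an edgeR adjusted p of 1.28e-12. Of its targets, C1R rose from 10.9 to 14.3 CPM (log2 fold change 0.41 ± 0.10, SE; edgeR adjusted p = 0.00282) and F12 from 14.2 to 17.1 CPM (0.26, SE 0.08, edgeR adjusted p = 0.0165). C1S was at 0.827 and 0.733 CPM and did not pass (edgeR adjusted p = 0.716). SERPINC1, which encodes antithrombin, had 0 counts in all libraries, and SERPIND1, which encodes heparin cofactor II, had at most 2.

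**Figure D3:**
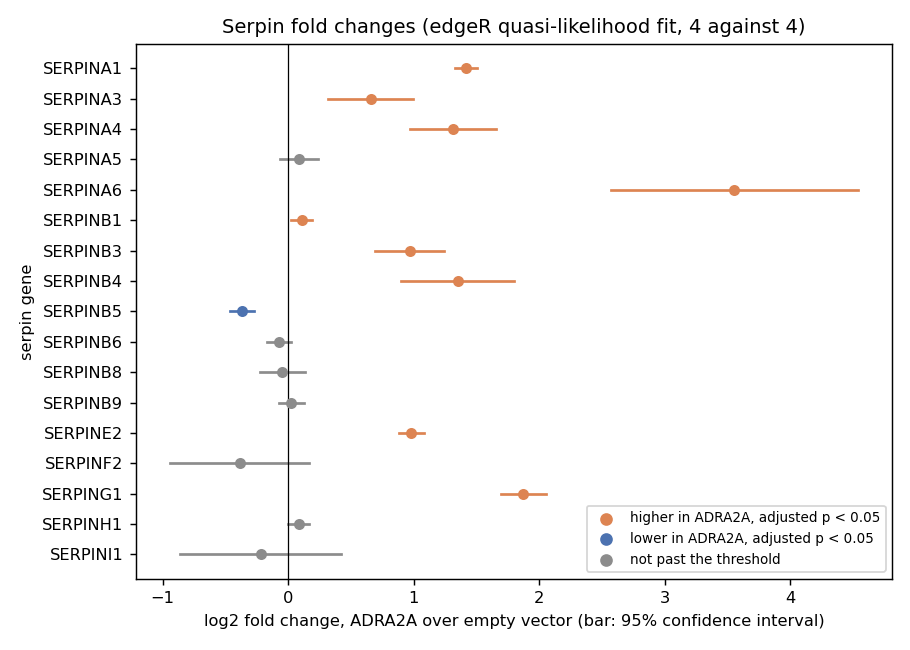
Log2 fold change of each tested serpin, ADRA2A over empty vector, with bars for the 95% confidence interval from edgeR's quasi-likelihood fit and colour for the call. SERPINA6 has the highest value, 3.55, with the widest interval, and SERPINB5, at -0.37, is the single gene called lower.

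Clade B serpins lack a classical secretion signal and guard the cell against proteases that leak from lysosomes or granules. SERPINB3 and SERPINB4, known as the squamous cell carcinoma antigens, are neighbouring genes on the minus strand of chromosome 18, at 63655197 to 63661893 and 63637259 to 63644256. SERPINB3 inhibits lysosomal cysteine proteases such as cathepsins L and S, and SERPINB4 inhibits chymotrypsin-like serine proteases such as cathepsin G. Their coding sequences are 95.2% identical over 1170 bases, and the 120 bases with the most differences, 18 of the 56, lie in exon 8, the last exon, which encodes the reactive loop. These 120 coding bases are shown because they carry the letters that tell the transcripts apart, with capitals at the differing bases, from chr18:63655761-63655880 for SERPINB3 and chr18:63637823-63637942 for SERPINB4 on GRCh38, both on the minus strand.
SERPINB3: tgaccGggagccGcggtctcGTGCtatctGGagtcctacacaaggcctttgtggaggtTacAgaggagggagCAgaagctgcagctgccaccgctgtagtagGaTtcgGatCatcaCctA
SERPINB4: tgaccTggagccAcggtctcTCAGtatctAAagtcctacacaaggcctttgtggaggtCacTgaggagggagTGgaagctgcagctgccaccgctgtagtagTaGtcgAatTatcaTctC

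The pair was the 1 of 136 pairs of tested serpins whose canonical transcripts share any run of 50 bases. Of all 50-base runs of the SERPINB3 transcript, 24.9% also occur in that of SERPINB4, and of 75-base runs 10.9%. The division of counts within the pair is therefore uncertain. The 250 bases before their RefSeq starts are equal at 247 positions.

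SERPINB3 had 5.21, 4.75, 4.12 and 4.39 CPM in the empty-vector libraries and 8.03, 10.8, 8.53 and 8.85 CPM in the ADRA2A libraries. SERPINB4 had 1.11, 1.49, 1.16 and 1.37 CPM against 2.98, 3.56, 3.26 and 3.29 CPM. In both genes every ADRA2A library lay above every empty-vector library. The log2 fold change was 0.97 ± 0.13 for SERPINB3 and 1.35 ± 0.22 for SERPINB4 (SE; edgeR adjusted p = 6.01e-06 and 4.14e-05). With the counts of both genes summed into 1 row before the fit, which removes the question of how they were divided, the log2 fold change was 1.06 ± 0.11 (SE), from 5.90 ± 0.481 to 12.3 ± 1.42 CPM (SD, n = 4 each). SERPINB3 made up 77.9% ± 2.89 of the pair's counts in the empty-vector libraries and 73.2% ± 1.14 in the ADRA2A libraries (SD, n = 4 each). All empty-vector shares lay above all ADRA2A shares, and the two-sided exact permutation test gave p = 0.0286, the smallest that 4 against 4 allows. That p-value does not cover the uncertain division of counts within the pair. SERPINB4 had only 19.35 to 22.24 estimated counts in the empty-vector libraries. Of 10 keratinocyte markers 4 were tested and KRT1 and LOR had 0 counts in all libraries. KRT5 fell (log2 fold change -2.42), KRT10 fell (-0.21), and DSG3 (0.26) and TP63 (0.53) did not pass. Across all tested genes 21.1% were lower. KRT5 passed the filter on low counts only through its empty-vector libraries, with means of 2.15 CPM without and 0.388 CPM with the transgene. The markers, mostly KRT10, summed to between 35.2 and 42.2 CPM in the empty-vector libraries and between 29.9 and 33.3 CPM in the ADRA2A libraries, and their part in the result was not tested.

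SERPINB5 encodes maspin, a member that does not inhibit serine proteases in the usual way and is used in pathology as a marker of pancreatic carcinoma. It lies in the same chromosome 18 cluster, at 63476958 to 63505085. It had 67.1, 66.1, 70.9 and 67.5 CPM in the empty-vector libraries and 50.7, 55.3, 52.6 and 52.0 CPM in the ADRA2A libraries. The groups did not overlap, and SERPINB5 fell by 0.37 on the log2 scale with an SE of 0.05 (edgeR adjusted p = 2.40e-06). SERPINB8, an inhibitor of furin at the far end of the cluster, lay between 14.1 and 15.9 CPM and between 12.7 and 15.6 CPM, and did not pass (95% confidence interval of the log2 fold change -0.23 to 0.13, edgeR adjusted p = 0.679).

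The 3 clade B genes on chromosome 6 were abundant and nearly level between the groups. SERPINB1, an inhibitor of neutrophil proteases, had 132, 131, 124 and 126 CPM in the empty-vector libraries and 136, 143, 142 and 131 CPM in the ADRA2A libraries, which overlapped. Its small log2 fold change of 0.11 ± 0.04 (SE) passed (edgeR adjusted p = 0.0386), but not in 5 of the 8 fits that left out a library, namely those without empty-vector replicate 3 or 4 or ADRA2A replicate 1, 2 or 3, where adjusted p lay between 0.0501 and 0.113. SERPINB6, an inhibitor of cathepsin G, lay between 135 and 142 CPM and between 121 and 139 CPM, with a log2 fold change of -0.08 that did not pass (95% confidence interval -0.17 to 0.02, edgeR adjusted p = 0.194). SERPINB9, the inhibitor of granzyme B by which cells resist cytotoxic lymphocytes, lay between 53.2 and 57.1 CPM and between 54.5 and 57.1 CPM. Its interval was narrow, from -0.07 to 0.12 on the log2 scale (edgeR adjusted p = 0.681). Of the 6 untested clade B genes, SERPINB7 had between 5 and 12 counts in the empty-vector libraries and between 1 and 8 in the ADRA2A libraries, SERPINB11 had at most 6, SERPINB2 at most 3 and SERPINB13 at most 1, and SERPINB10 and SERPINB12 had 0.

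SERPINH1 encodes HSP47, a chaperone of the endoplasmic reticulum that binds newly made collagen and inhibits no protease. It had 126, 130, 137 and 127 CPM in the empty-vector libraries and 137, 134, 140 and 140 CPM in the ADRA2A libraries, which overlapped at empty-vector replicate 3. Its log2 fold change of 0.08 ± 0.04 (SE) did not pass (edgeR adjusted p = 0.0919), and without empty-vector replicate 3 it was 0.11 and passed (adjusted p = 0.0352). The 20 tested genes of its collagen clients and their processing enzymes had a median log2 fold change of -0.09, and 6 were higher and 8 lower. Those calls stand beside the 21.6% higher and 21.1% lower found across all tested genes, and the list itself was not tested. COL1A1 went from 78.4 ± 1.93 to 23.9 ± 1.22 CPM (SD, n = 4 each; log2 fold change -1.72), COL4A1 from 237 ± 6.28 to 138 ± 6.88 CPM (-0.78) and COL4A2 from 412 ± 5.39 to 276 ± 7.11 CPM (-0.58), with edgeR adjusted p of at most 2.05e-11. The 8 lower genes were 7 collagen chains and PLOD3, and the 6 higher ones were the chain gene COL6A2 and the processing or export genes FKBP10, PLOD2, P3H1, MIA3 and PLOD1.

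SERPINI1 of clade I encodes neuroserpin, an inhibitor of tissue plasminogen activator in the nervous system. It had 1.93, 1.43, 1.74 and 1.70 CPM in the empty-vector libraries and 1.45, 0.726, 2.41 and 1.20 CPM in the ADRA2A libraries. Its counts per library ran from 11 to 42, the ADRA2A libraries enclosed all empty-vector libraries, and it did not pass (95% confidence interval of the log2 fold change -0.86 to 0.42, edgeR adjusted p = 0.595). SERPINI2, known as pancpin and named for its expression in pancreas, had 3, 0, 0 and 0 counts in the empty-vector libraries and 5, 5, 10 and 4 in the ADRA2A libraries. It did not pass the filter. With no filter its edgeR adjusted p was 0.0135, at too few counts for a fold change to be given.

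Serpin genes lie in clusters, so the tested genes around them were set beside them. Across all tested genes 42.7% passed the threshold, 21.6% higher and 21.1% lower, and the counts of neighbours stand beside these shares. Around the clade A cluster the 10 nearest tested genes on each side had a median log2 fold change of 0.12, with 7 higher and 3 lower. Their values ran from -0.39 to 1.53, the latter of BDKRB2, 1760 kb from the cluster. SERPINA6 lay above all of these neighbours. SERPINA1, SERPINA4 and SERPINA3 lay above all of them but BDKRB2, the next highest neighbour being IFI27 at 0.58. Around the chromosome 18 cluster the 20 neighbours had a median of -0.04 and a range of -3.10 to 0.87, with 6 higher and 3 lower, and HMSD, which lies inside the cluster, did not pass. Around the chromosome 6 cluster the median of 19 neighbours was 0.00, with 5 higher and 5 lower, and its sign changed with the scaling and the filter. The values there ran from -1.24 to 2.15, the latter of FOXF2, a low gene at 0.264 CPM without and 1.14 CPM with the transgene. The neighbours of SERPING1 had a median of -0.02 and ran from -0.96 to 0.61. Those of SERPINE2 had a median of 0.06 and ran from -1.15 to 0.60. Since low genes were not tested, some of these neighbours lay far off, up to 1977 kb from the clade A cluster, 2581 kb and 10523 kb from those on chromosomes 6 and 18, 5054 kb from SERPINE2 and 9921 kb from SERPING1.

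**Figure D4:**
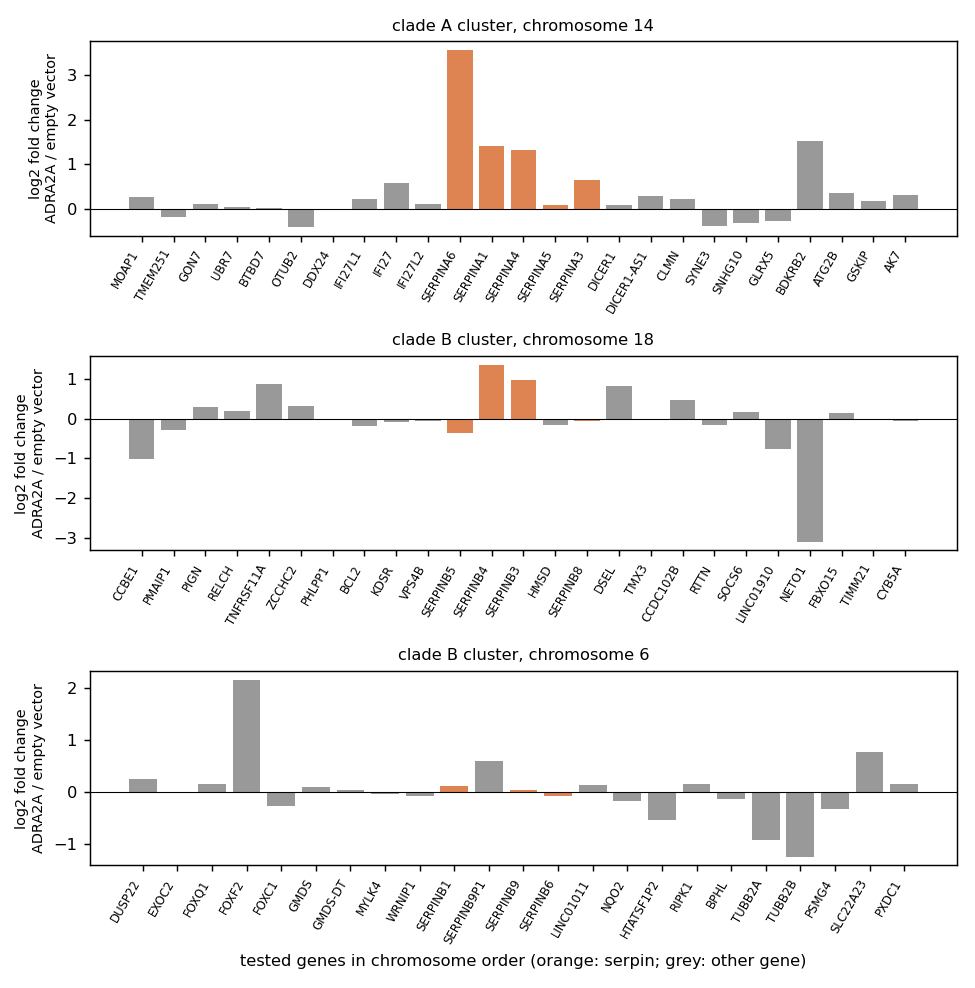
Log2 fold change of the tested genes around the 3 serpin clusters in chromosome order, serpins in orange and other genes in grey. In the upper panel SERPINA6, SERPINA1 and SERPINA4 stand at 3.55, 1.42 and 1.31 beside SERPINA5 at 0.08, and in the middle panel SERPINB4 and SERPINB3 rise between SERPINB5 and SERPINB8.

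The proteases listed as known or possible targets of serpins changed in both directions. Of 54 listed, 30 were tested, 13 higher and 7 lower, with a median log2 fold change of 0.19. PRSS23, a secreted serine protease, fell from 398 ± 14.2 to 178 ± 8.47 CPM (SD, n = 4 each; log2 fold change -1.16), the lysosomal cysteine protease gene CTSS rose from 20.3 ± 1.56 to 48.9 ± 4.75 CPM (1.27), and the kallikrein-related peptidase gene KLK11 rose from 18.1 ± 1.02 to 39.2 ± 1.94 CPM (1.12). The highest edgeR adjusted p of the 3 was 4.38e-11. The neutrophil, lymphocyte and mast cell protease genes ELANE, CTSG, GZMA, GZMB and CMA1 had 0 counts in all libraries. CTSL, a target of SERPINB3, rose by a log2 fold change of 0.39 (edgeR adjusted p = 2.08e-06).

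Among receptors and cofactors that clear or place serpin complexes, 20 of 23 were tested, with 9 higher and 4 lower and a median log2 fold change of 0.06. LRP1, the endocytic receptor that removes serpin-protease complexes, rose from 17.8 ± 2.44 to 36.4 ± 5.25 CPM (SD, n = 4 per group), or by 1.02 on the log2 scale (edgeR adjusted p = 8.47e-08). The integrin genes ITGA5 and ITGB3 rose by 1.70 and 1.54. LMAN1, the cargo receptor that carries alpha-1 antitrypsin out of the endoplasmic reticulum, rose slightly from 225 to 241 CPM (log2 fold change 0.10, edgeR adjusted p = 0.0329), and its partner MCFD2 did not pass (edgeR adjusted p = 0.474). Among 18 tested protease inhibitors of other families, 9 were higher and 4 lower, with a median of 0.22. SLPI, which like alpha-1 antitrypsin inhibits neutrophil elastase, rose from 30.9 ± 2.10 to 125 ± 7.63 CPM (log2 fold change 2.01), TFPI2 rose from 339 ± 11.6 to 458 ± 15.8 CPM (0.43), and the cystatin gene CST6 fell from 7.90 ± 0.708 to 1.42 ± 0.558 CPM (-2.46; SD, n = 4 each). The highest edgeR adjusted p of the 3 was 1.20e-08. These counts stand beside the 42.7% of all tested genes that passed, and the lists as such were not tested.

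**Figure D5:**
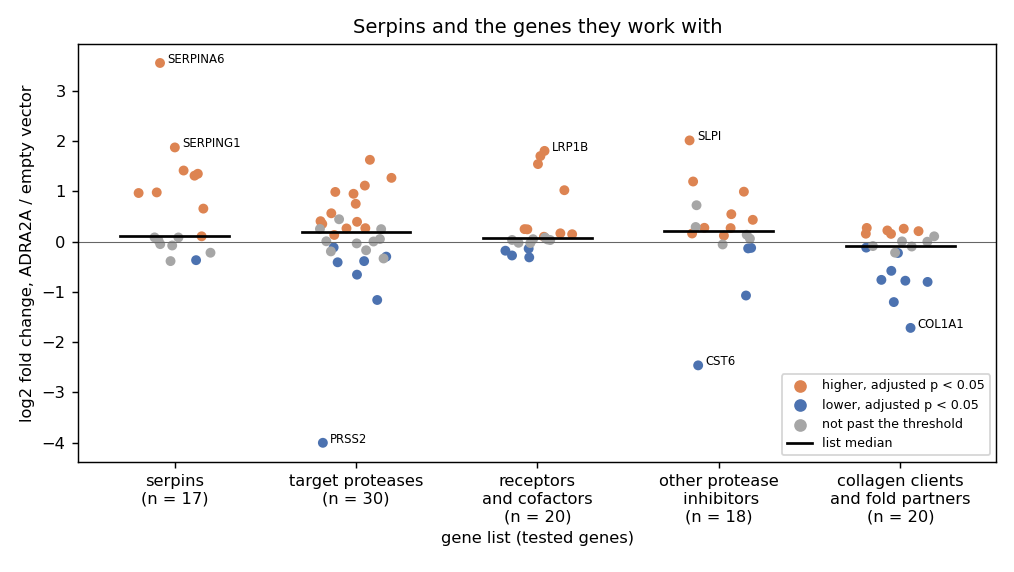
Log2 fold change of each tested serpin and of each tested gene in 4 lists of proteins related to the work of serpins, coloured by call, with a black line at the list median. The medians lie between -0.09 and 0.22, and single genes such as SLPI at 2.01, CST6 at -2.46 and PRSS2 at -4.00 lie far from them. PRSS2 passed the filter on low counts only through its empty-vector libraries, with means of 2.14 CPM there and 0.123 CPM in the ADRA2A libraries.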

How the data were processed

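RNA of 8 CFPAC-1 samples, 4 per group, was read on a NextSeq instrument, as the labels' protocols state. The authors deposited gene-level estimated counts, not scaled between samples. The submitters' processing notes name cutadapt, STAR, RSEM, DESeq2 and the build hg38, without versions. The annotation release and the use of strand are not given in the sources used here. All 8 columns were matched to samples by title, which left 0 columns over. Estimated counts were rounded. Genes kept by edgeR 4.0.16 filterByExpr (14785) were scaled by TMM and tested with glmQLFit and glmQLFTest on the group alone, adjusted over all tested genes by Benjamini-Hochberg, threshold 0.05. SE is the absolute log2 fold change over the square root of F. The test was first checked on simulated data. CPM are TMM-scaled; TPM use canonical GENCODE 44 transcript lengths (99.4% of rows matched). Promoter windows are from RefSeq.

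Alternatives were DESeq2 1.42.0, RLE and upper quartile factors, limma 3.58.1 voom, 2 other count filters, the replicate block, unrounded counts, and leaving out each library. Depth was 14427040 to 17528910 counts per sample. Within groups no pair of libraries agreed within sampling noise (chi-square per degree of freedom 2.15 to 5.04). The members, the gene lists and the motifs were chosen with earlier results of these data known, and the motifs after the fold changes were seen. Each tested serpin is named, and 1 untested serpin is not reported here. Of each list of proteins related to the work of serpins, the 3 genes with the smallest p are named, with PLAU, PLAT, PLAUR and ADRA2A. Other genes named (among them CTSL, C1R, C1S, F12, LMAN1, MCFD2, PRSS2, HMSD, BDKRB2 and the marker genes) were chosen after their values were seen.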

Additional observations from a re-analysis of the deposited data

Results flagged for a closer look

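SERPINH1 in empty-vector replicate 3 stood apart from the other 3 empty-vector libraries on the per-length scale, at 151 TPM against 142 to 143 TPM. SERPINI2 in empty-vector replicate 1, at 0.176 CPM from 3 counts, stood apart from the other 3 at 0. In both cases the gap to the nearest library was above the limit that Dixon's test sets for 4 values. For SERPINI2 this was fixed in advance, since any single library above 0 beside others at 0 passes that limit. In all, 64 groups of 4 values were examined this way, and chance alone marks about 1 in 20 where values are continuous, which does not hold for SERPINI2. The call of SERPINH1 without that library is given beside its values.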

How the results depend on the processing

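Of the 10 serpins that passed, 9 kept their direction and their call under every alternative that tested them, and SERPINB1 kept its direction. SERPINB1 also missed the threshold with no filter (adjusted p = 0.0551) and with upper quartile factors (0.0891). The number of serpins past the threshold was 10, and lay between 8 (mean of at least 50 counts, where SERPINA6 and SERPINB4 were not tested) and 11. Over the fits that left out 1 library, the number lower lay between 1 and 2. Among all genes 6314 passed, and between 5703 and 6550 under the alternatives; upper quartile factors gave 2955 higher and 3412 lower against 3195 and 3119. The lower share of SERPINB3 in its pair lay between -5.33 and -3.24 percentage points over the fits without 1 library, where 3 against 4 cannot reach 0.05. SERPINB8, which did not pass, lay between -0.083 and 0.0094 over the same fits and changed sign without ADRA2A replicate 2. Neighbour medians near 0 also changed sign: around SERPING1 without ADRA2A replicate 3 or 4 (range without 1 library -0.043 to 0.011), around SERPINH1 without empty-vector replicate 1 or ADRA2A replicate 1 (-0.025 to 0.068), and around SERPINB1, SERPINB9 and SERPINB6 with a mean of at least 50 counts (-0.037), with upper quartile factors (-0.013) and without empty-vector replicate 3 or 4 or ADRA2A replicate 1 or 4 (-0.060 to 0.037). The cause was not tested. Samples of 1 number share only that number: the correlations of their deviations lay between -0.042 and 0.070. With the replicate block 10 serpins and 6400 genes passed. Genes under about 10 counts per library limit what can be seen here.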
